A study of Homo sapiens with 6 samples.

Results

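Messenger RNAs of 4 families of splicing proteins were followed in A549 cells, a human line derived from a lung adenocarcinoma, after transfection with siRNAs against TIMM13. The genes were chosen by symbol: SRSF with a number (SR proteins), HNRNP (heterogeneous nuclear ribonucleoproteins), SF3A or SF3B with a number (subunits of the U2 particle) and SNRP (proteins of the small nuclear ribonucleoproteins, or snRNPs). Of 19990 genes in the table, 59 symbols matched, and 55 of them reached 1 in 2 or more of the 6 libraries, as did 11486 genes in all. These 55 were 12 SRSF, 22 HNRNP, 9 SF3A or SF3B and 12 SNRP genes. The other 4 matching genes, HNRNPCL1, HNRNPCL2, HNRNPCL3 and HNRNPCL4, stayed below 1 in every library and were not tested.

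The study asked how TIMM13, a chaperone that carries membrane proteins across the mitochondrial intermembrane space, affects proliferation. Per the titles, 2 libraries came from A549 cells with a non-targeting control siRNA, 2 from cells with TIMM13 siRNA 1 and 2 from cells with TIMM13 siRNA 2. All 6 carry the same treatment label, cell differentiation, and the control columns are headed NC, so the groups rest on the titles. All come from 1 cancer line. Whether the replicates are separate cultures is not labelled, and p-values therefore measure only the spread between these libraries, which may be technical.

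The TIMM13 abundance read 2.09 and 2.56 in the control pair, then 2.09 and 1.83 for siRNA 1, then 1.82 and 2.31 for siRNA 2. A lower level was not detected with either siRNA (limma adjusted p = 0.653 and 0.666), so siRNA 1 and siRNA 2 mean throughout the libraries labelled so, and every direction given below rests on those labels. The values are fractional abundances scaled to library depth by the authors, whose unit is not stated to be FPKM or TPM. Column totals were 205986 to 219820 in 5 libraries and 299936 in siRNA 2 replicate 2. That library stands apart: its Pearson correlations with the others, over the log2 values of 11486 genes, were 0.745 to 0.805, and those among the other 5 were at least 0.831. Replicates of siRNA 2 correlated at 0.805, those of the control at 0.888 and those of siRNA 1 at 0.895. The keratins KRT8 and KRT18 and ALDH1A1, typical of this line, were at 412 or more in every library. Of the other 5 genes on the list of this line, AKR1B10 was at 1139 and 1186 in the control, 1057 and 1079.7 with siRNA 1 and 216 and 408 with siRNA 2, CDH1, KRT19 and EPCAM were at 1.63 to 34.8, and NAPSA stayed below 1. In contrast, 4 of 4 genes of alveolar type II cells, 4 of 4 of leukocytes and 3 of 3 of endothelium stayed below 1. Of 4 fibroblast genes only COL1A1 passed 1, and the summed level of that list was 0.826 to 0.843 in the control, 1.91 to 2.41 with siRNA 1 and 2.66 to 4.39 with siRNA 2; its part in the results was not tested.

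Splicing removes introns from pre-mRNA. SR proteins bind exonic enhancers and recruit the spliceosome, hnRNP proteins coat nascent transcripts and often block splice sites, and both groups act together on alternative exons. The U1 snRNP recognises the 5′ splice site and the U2 snRNP the branch point. Each of these particles is built on a ring of Sm proteins, and the SF3A and SF3B complexes join the U2 particle to the branch region. Cancer cells often carry altered levels of these factors, and SF3B1 and SRSF2 are recurrently mutated in myeloid neoplasms.

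All 55 genes matched GENCODE 29 and are annotated there as protein coding, with a median of 9 annotated transcripts against 8 over the 11358 tested genes that matched. Some of them share long stretches with other annotated genes, which bears on how far their values can be told apart. Of the 50-base words in the annotated transcript, 67.4% of HNRNPA1, 58.5% of HNRNPA1L2, 49.2% of HNRNPA1L3, 58.3% of HNRNPA3, 65.1% of SRSF1 and 50.8% of SNRPN also occur in another gene. For SRSF1 that gene is AC015813.2, and for SNRPN the largest part, 39.3%, is in SNURF. Both of these overlap the exons of SRSF1 or SNRPN on the same strand and are not copies elsewhere in the genome. In contrast, 17 of the 55 share none, among them SRSF2, SRSF7, HNRNPF and HNRNPUL1. HNRNPA1 on chromosome 12 shares such words with its copies HNRNPA1L2 on chromosome 13 and HNRNPA1L3 on chromosome 16. Abundances of these 3 genes are therefore reported as uncertain, since the assignment of reads that match several of them is not described.

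Few splicing factors passed the test, and those that did were called with siRNA 2. Values were analysed as log2(value + 1) in limma, with p adjusted by Benjamini-Hochberg over all 11486 genes and calls made below 0.05. With siRNA 1, 0 of 55 were called, against 1.63% of all genes (0.705% higher, 0.923% lower), and 4 of 55 had an unadjusted p under 0.05, against 20.5% of all genes. With siRNA 2, SRSF2 rose and HNRNPF and HNRNPUL1 fell, which is 3 of 55 against 3% of all genes (1 higher against 1.24%, 2 lower against 1.76%). At an unadjusted p under 0.05 there were 12 of 55, against 25.7%. For the mean of both siRNAs, SRSF2 alone was called, against 1.19% of all genes (0.723% higher, 0.47% lower), and 10 of 55 had an unadjusted p under 0.05, against 23.1%. In the direct comparison of siRNA 1 with siRNA 2, these same 3 genes were called, against 3.27% of all genes: HNRNPF and HNRNPUL1 were higher with siRNA 1 (1.91%) and SRSF2 lower (1.37%). There 11 of 55 had an unadjusted p under 0.05, against 24.3%. These shares are near those of the whole table or below them. After upper-quartile scaling, after scaling to equal column totals and after quantile normalization, SRSF2 was the 1 gene of the 55 called with siRNA 2, so the split changed from 1 higher and 2 lower to 1 higher and 0 lower. In those fits 112, 19 and 143 of all genes were called with siRNA 2. The control libraries are shared by both siRNA comparisons.

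How many were called depended on which libraries set the spread. When any single control or siRNA 1 library was left out (control replicates 1 and 2, siRNA 1 replicates 1 and 2), limma called 0 of 55 in each comparison, and 0 of the 11486 genes. Without siRNA 2 replicate 1 it called 10 of 55 with siRNA 1 and 31 with siRNA 2 (2350 and 4663 of all genes), and without siRNA 2 replicate 2 it called 11 and 10 (2374 and 1763 of all genes). For the mean of both siRNAs and between the siRNAs the counts rose as well, among the 55 and among all genes. In both of these fits 1 siRNA 2 library is left and the spread comes from the other groups, so a call there is no support for a gene.

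**Figure D1:**
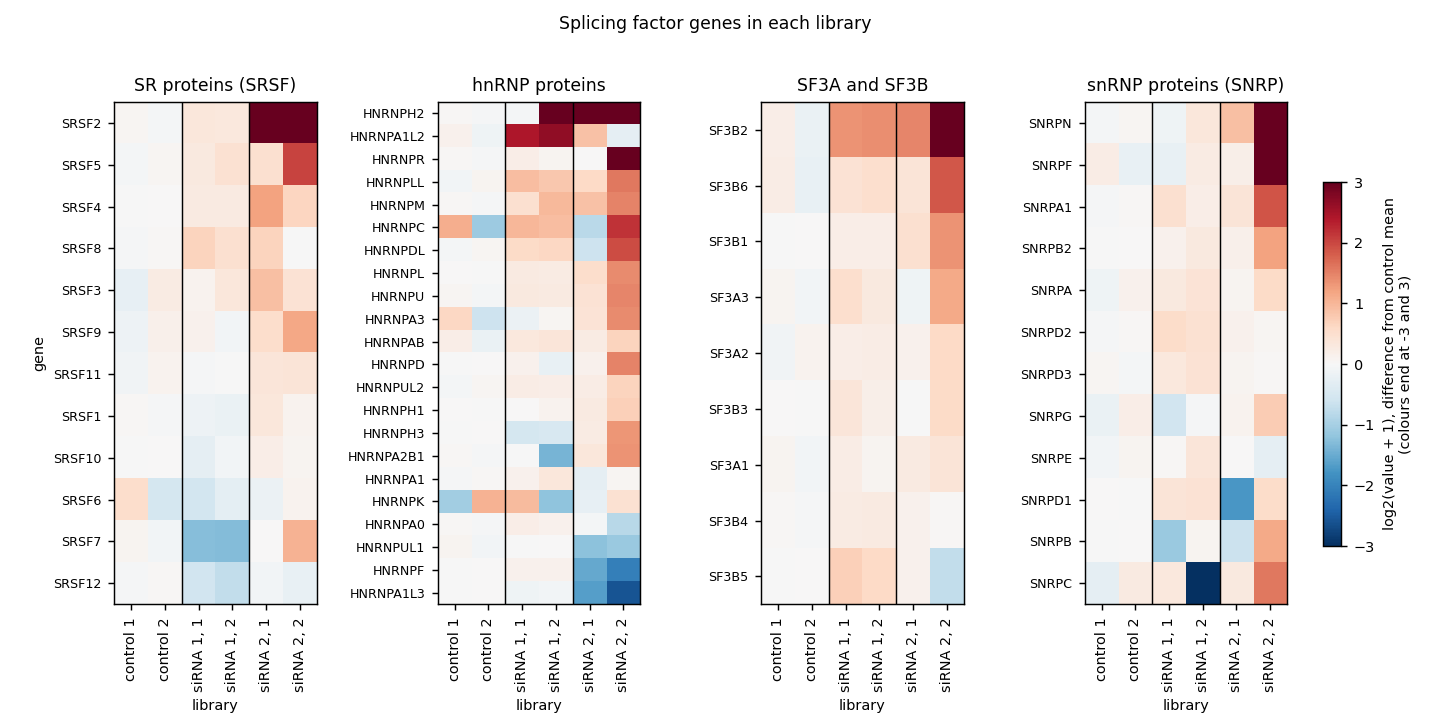
Difference of each of the 55 splicing factor genes from its control mean on the log2(value + 1) scale, with genes in rows by family and the 6 libraries in columns; colours end at -3 and 3. SRSF2 is dark red in both siRNA 2 libraries, HNRNPF and HNRNPUL1 are blue there, and most rows are redder in siRNA 2 replicate 2 than in replicate 1.

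SRSF2 (also called SC35, an SR protein that binds exonic enhancers and is found in nuclear speckles; chromosome 17, 76734115 to 76737374, minus strand, GRCh38) showed the clearest difference. Its abundance was 11.9 and 10.8 in the control libraries, 14.6 and 14.3 with siRNA 1, and 137 and 142 with siRNA 2. Both siRNA 2 libraries lie far above the other 4, and they differ little from each other. The means were 11.4 ± 0.725 (SD, n = 2) in the control, 14.5 ± 0.22 (SD, n = 2) with siRNA 1 and 139 ± 3.84 (SD, n = 2) with siRNA 2, a 12.3-fold difference between siRNA 2 and control. The log2 fold change was 3.51 (SE 0.15, limma adjusted p = 0.0121) with siRNA 2 and 0.32 (SE 0.15, limma adjusted p = 0.323) with siRNA 1. The difference between the siRNAs passed the test as well, at -3.18 for siRNA 1 minus siRNA 2 (SE 0.15, limma adjusted p = 0.0157). Leaving out 1 control or siRNA 1 library ended the call, with limma adjusted p of 0.114 without control replicate 1, 0.109 without control replicate 2, 0.108 without siRNA 1 replicate 1 and 0.115 without siRNA 1 replicate 2. The fold hardly moved (log2 3.45 to 3.57 over the 6 fits that each leave out 1 library), and in those 4 fits limma called 0 of the 11486 genes. SRSF2 overlaps the exons of MFSD11 on the other strand by 1106 bases. MFSD11 was at 11.9 and 13.2 in the control, 16.9 and 13.7 with siRNA 1 and 10.1 and 14.7 with siRNA 2, and shows no such step (limma adjusted p = 0.935 with siRNA 2). The libraries are strand-specific per the labels, and whether the counting used the strand is not stated.

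HNRNPF, which binds G-rich tracts beside exons, fell with siRNA 2 (chromosome 10, 43385617 to 43409166, minus strand). Its abundance was 152 and 155 in the control, 169 and 168 with siRNA 1, and 52.1 and 36.0 with siRNA 2. The siRNA 2 libraries do not overlap the others, and the means were 153 ± 1.96 (SD, n = 2) in the control and 44.0 ± 11.3 (SD, n = 2) with siRNA 2. On the log2 scale it fell by 1.80 (SE 0.226, limma adjusted p = 0.0397) with siRNA 2, and the log2 difference between siRNA 1 and control was 0.13 (SE 0.226, limma adjusted p = 0.812). The siRNAs differed by 1.93 (SE 0.226, limma adjusted p = 0.0369), with siRNA 1 higher.

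HNRNPUL1, a relative of HNRNPU that takes part in DNA repair, fell with siRNA 2 as well (chromosome 19, 41262496 to 41307598, plus strand). Control libraries held 111 and 99.5, siRNA 1 libraries 104 and 106, and siRNA 2 libraries 44.5 and 48.0. Again both siRNA 2 libraries lie below the other 4, with means of 105 ± 8.30 (SD, n = 2) in the control and 46.2 ± 2.50 (SD, n = 2) with siRNA 2. The log2 fold change was -1.17 (SE 0.161, limma adjusted p = 0.0442) with siRNA 2 and 0.00 (SE 0.161, limma adjusted p = 0.999) with siRNA 1. Between the siRNAs the difference was 1.17 (SE 0.161, limma adjusted p = 0.0443). The gene overlaps TGFB1 on the other strand by 215 bases, and TGFB1 was at 28.7 and 29.9, then 29.3 and 24.3, then 25.02 and 25.06 in the same order of libraries.

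The calls of both falls depend on the spread that all 6 libraries share, while the folds held: over the 6 fits that each leave out 1 library, the log2 fold change was -2.06 to -1.54 for HNRNPF and -1.25 to -1.09 for HNRNPUL1. For HNRNPF, limma adjusted p was 0.219 without control replicate 1, 0.225 without control replicate 2, 0.160 without siRNA 1 replicate 1 and 0.158 without siRNA 1 replicate 2. For HNRNPUL1 it was 0.265, 0.235, 0.168 and 0.169 in the same order. In the fits that leave 1 siRNA 2 library, that library has no spread of its own. Calls in those fits therefore cannot show that the falls, or the rise of SRSF2, hold.

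**Figure D2:**
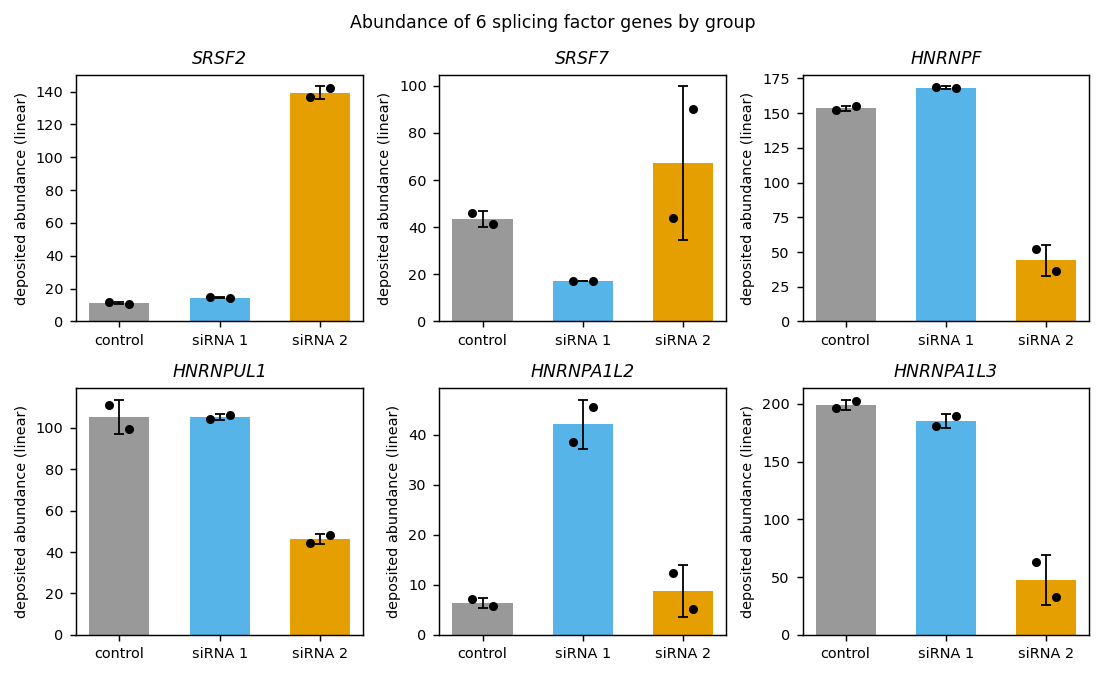
Deposited abundance of 6 splicing factor genes by group on linear axes that start at 0; points are libraries, bars are means and error bars are SDs of 2 libraries. SRSF2 is high and HNRNPF, HNRNPUL1 and HNRNPA1L3 are low in the 2 siRNA 2 libraries, whereas SRSF7 is low and HNRNPA1L2 high in the 2 siRNA 1 libraries.

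The SR proteins held the gene with the highest called change and, with siRNA 1, the lowest family median. Their median log2 difference from control was 0.00 with siRNA 1 (6 of 12 above 0) and 0.45 with siRNA 2 (10 of 12 above 0), beside 0.05 and 0.14 over all genes tested. Of all genes tested, 53.8% and 57.8% were above 0. As deposited, the 2 libraries gave much the same value, with an SRSF median of 0.42 in siRNA 2 replicate 1 and 0.41 in replicate 2. Replicate 2 had the larger column total, 299936 against 205986, and scaling to equal totals lowered the siRNA 2 SRSF median to 0.21. SRSF1, the founding member of the family, had the highest mean level at 77.2, with 77.2 and 73.9 in the control, 67.4 and 66.2 with siRNA 1, and 96.6 and 82.0 with siRNA 2. Its log2 differences, -0.18 and 0.23, did not pass the test (limma adjusted p = 0.63 and 0.412).

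SRSF7, a zinc-knuckle SR protein that also takes part in mRNA export, was at 45.9 and 41.2 in the control, 17.24 and 17.03 with siRNA 1, and 44.0 and 90.2 with siRNA 2. The siRNA 1 libraries are the low ones and lie close together, but the log2 difference of -1.30 (SE 0.367) did not pass the test (limma adjusted p = 0.152). The spread in that test comes from all 6 libraries. In a fit of the control and siRNA 1 libraries alone SRSF7 was called, as were 2386 of all 11486 genes. SRSF12, a low-abundance SR protein that represses splicing, was lowest with siRNA 1 too, at 1.02 and 1.14 in the control, 0.39 and 0.248 with siRNA 1, and 0.965 and 0.795 with siRNA 2. Its log2 difference with siRNA 1 was -0.66 (SE 0.122, limma adjusted p = 0.0815). SRSF12 passed the filter of 1 in 2 libraries only through the control pair. That choice favours lower values elsewhere, so the difference cannot count as support for a fall.

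SRSF4 and SRSF9 had the next smallest p among SR genes with siRNA 2. SRSF4 was at 27.3 and 27.7 in the control, 33.3 and 33.1 with siRNA 1, and 64.3 and 43.3 with siRNA 2. The groups do not overlap and stand in that order, with a log2 difference of 0.92 for siRNA 2 (SE 0.233, limma adjusted p = 0.106). SRSF9 was at 36.9 and 46.4 in the control, 45.4 and 38.7 with siRNA 1, and 59.6 and 93.0 with siRNA 2. Here control and siRNA 1 overlap, and the siRNA 2 difference of 0.83 did not pass the test (limma adjusted p = 0.165).

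The hnRNP genes held the widest range. Their median log2 difference was 0.19 with siRNA 1 (16 of 22 above 0) and 0.68 with siRNA 2 (17 of 22 above 0). With siRNA 2 that median came mostly from 1 library, at 0.23 in replicate 1 and 1.34 in replicate 2. HNRNPA2B1, a close relative of HNRNPA1, had the highest mean level of the family at 158, with 135 and 127 in the control, 131 and 49.3 with siRNA 1, and 167 and 337 with siRNA 2.

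HNRNPA1L2, the copy on chromosome 13, was at 7.07 and 5.70 in the control, 38.5 and 45.5 with siRNA 1, and 12.4 and 5.11 with siRNA 2. The siRNA 1 libraries lie above the other 4, and the log2 difference was 2.55 (SE 0.421, limma adjusted p = 0.0736). HNRNPA1L3, the copy on chromosome 16, was at 196 and 202 in the control, 181 and 189 with siRNA 1, and 63.1 and 32.3 with siRNA 2. There the siRNA 2 libraries are the low ones, with a log2 difference of -2.12 (SE 0.345, limma adjusted p = 0.0559). HNRNPA1 itself, one of the most abundant hnRNPs and a repressor of exon inclusion, was at 49.2 and 52.4, then 55.9 and 64.0, then 41.9 and 52.7, and its log2 differences were 0.23 and -0.11 (limma adjusted p = 0.577 and 0.732). The order of the groups thus differs among the 3 genes.

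HNRNPM and HNRNPLL lay above control in both siRNA groups. HNRNPM, which acts on exons that switch in the epithelial-mesenchymal transition, was at 27.5 and 26.3 in the control, 37.6 and 53.8 with siRNA 1, and 49.97 and 76.9 with siRNA 2. HNRNPLL, known for the switch of CD45 isoforms in lymphocytes, had the lowest mean level of the family at 10.6, with 5.50 and 6.26 in the control, 12.01 and 11.1 with siRNA 1, and 9.47 and 19.5 with siRNA 2. For the mean of both siRNAs the log2 differences were 0.95 (SE 0.258, limma adjusted p = 0.131) and 0.98 (SE 0.310, limma adjusted p = 0.164), so neither was called. With SF3B2, these were the 3 genes of the 55 whose 2 siRNA groups both lay wholly above control with at least 1.5-fold in group means, against 8.85% of all genes. Wholly below control in both were 0 of 55, against 5.89% of all genes.

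HNRNPH2, close kin of HNRNPH1 and HNRNPF, was near 0 in 3 libraries and high in the other 3. It was at 0.0737 and 0.0267 in the control, 0.0152 and 93.4 with siRNA 1, and 128 and 69.5 with siRNA 2. Replicates of siRNA 1 are at opposite ends, and the siRNA 2 difference of 6.51 (SE 2.22) did not pass the test (limma adjusted p = 0.169). A readthrough transcript of RPL36A and HNRNPH2, listed as a gene of its own, was at 31.5 in control replicate 1 and 36.4 in siRNA 2 replicate 2 and was listed at 0 in the other 4 libraries. HNRNPH1 stayed between 133 and 219 throughout.

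Most SF3A and SF3B genes leaned one way, with log2 differences of 0.16 to 1.37 with siRNA 1 and -0.31 to 2.37 with siRNA 2. All 9 were above control with siRNA 1 (median log2 difference 0.27), against 53.8% of all genes. With siRNA 2, 8 of 9 were (median 0.36), against 57.8%. In either comparison 0 of 9 were called, against 1.63% and 3% of all genes. Their per-library medians against control were 0.36 and 0.28 with siRNA 1 and 0.13 and 0.59 with siRNA 2. SF3A1, SF3A2 and SF3A3, the 3 subunits of SF3A, differed from control by 0.16 to 0.40 with siRNA 1 and by 0.33 to 0.51 with siRNA 2 on the log2 scale.

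SF3B2, the SF3B subunit that binds SF3B4, differed more than the rest of its family. It was at 7.56 and 5.54 in the control, 17.9 and 18.8 with siRNA 1, and 19.7 and 71.7 with siRNA 2. All 4 siRNA libraries lie above both control libraries, while siRNA 2 replicate 2 is far above the other 3. The log2 differences were 1.37 (SE 0.640, limma adjusted p = 0.33) with siRNA 1 and 2.37 (SE 0.640, limma adjusted p = 0.118) with siRNA 2. The siRNA 2 difference was 1.47 without replicate 2 of that group and 3.28 without replicate 1.

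SF3B1, the largest subunit and the one that holds the branch point, was at 31.9 in each control library, then 36.6 and 36.7 for siRNA 1, then 44.7 and 82.8 for siRNA 2. The siRNA 2 difference was 0.91 (SE 0.321, limma adjusted p = 0.173). SF3B6, which contacts the branch-point adenosine, was at 33.1 and 24.3, then 38.7 and 41.0, then 37.3 and 105 in the same order, with a siRNA 2 difference of 1.12 (limma adjusted p = 0.27). The highest siRNA 2 value of both genes is in replicate 2.

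SF3B5, a small subunit and the family's highest by mean level at 99.5, was at 86.4 and 87.6 in the control, 144 and 133 with siRNA 1, and 94.6 and 51.8 with siRNA 2. Its siRNA 1 difference was 0.66 (SE 0.321, limma adjusted p = 0.342). SF3B4, which helps to bind the U2 particle upstream of the branch point, was at 40.9 and 39.3, then 48.1 and 48.9, then 43.9 and 41.2, with a siRNA 1 difference of 0.27 (limma adjusted p = 0.399). In both genes the siRNA 1 libraries are the highest 2. SF3B3, a scaffold subunit, had the lowest mean level of the family, at 11.4.

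Among the snRNP proteins, 0 of 12 were called in any of the 4 comparisons, in which 1.63%, 3%, 1.19% and 3.27% of all genes were called. The median log2 difference was 0.21 with siRNA 1 (9 of 12 above 0) and 0.38 with siRNA 2 (10 of 12 above 0). As with the hnRNPs, the siRNA 2 value came mostly from 1 library: the SNRP median was 0.13 in replicate 1 and 0.96 in replicate 2. The 8 Sm proteins of the ring had a siRNA 2 median of 0.18, and the 4 proteins particular to U1 or U2, SNRPA, SNRPC, SNRPA1 and SNRPB2, one of 0.81.

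SNRPD2, an Sm protein and the highest SNRP gene by mean level at 192, was at 160.1 and 169 in the control, 242 and 225 with siRNA 1, and 181 and 172 with siRNA 2. SNRPD3, another Sm protein of the ring, was at 22.6 and 20.4, then 27.2 and 29.2, then 22.6 and 22.0. In both, the siRNA 1 libraries are above the other 4, with log2 differences of 0.50 (SE 0.160, limma adjusted p = 0.184) and 0.38 (SE 0.156, limma adjusted p = 0.277). SNRPA, a U1 protein that binds a loop of U1 RNA, was at 31.4 and 37.3 in the control, 42.3 and 46.0 with siRNA 1, and 36.4 and 51.3 with siRNA 2, and its siRNA 1 difference was 0.36 (limma adjusted p = 0.47).

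With siRNA 2, SNRPN, SNRPA1 and SNRPB2 had the smallest p of the family. SNRPN, an Sm B protein made mainly in neurons and imprinted, was at 4.90 and 5.49 in the control, 4.66 and 6.80 with siRNA 1, and 10.5 and 77.1 with siRNA 2. SNRPA1, a U2 protein, was at 5.72 and 6.03, then 8.60 and 6.85, then 8.01 and 24.6. SNRPB2, its partner on U2 RNA, was at 17.9 and 18.1, then 19.8 and 22.3, then 20.1 and 42.9. In all 3 the value of siRNA 2 replicate 2 is the highest, and limma adjusted p was 0.226, 0.265 and 0.324. SNRPE, an Sm protein with the lowest mean level of the family at 7.94, ranged from 6.24 to 10.3 over the 6 libraries.

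**Figure D3:**
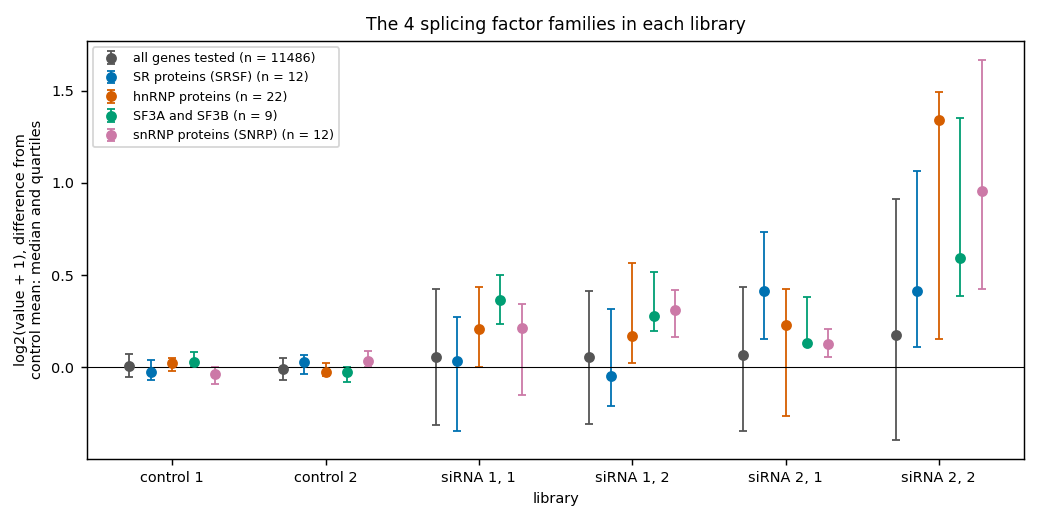
Median and quartiles of the log2(value + 1) difference from the control mean, for each family and for all 11486 genes tested, in each of the 6 libraries. In siRNA 2 replicate 2 the HNRNP median is 1.34 and the SNRP median 0.96, while the SRSF median is 0.41 there and 0.42 in replicate 1; the median of all genes stays between -0.01 and 0.17.

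The 4 families can be set beside all genes, which removes a shift only as far as it is the same for every gene. Scaling to equal column totals moved the siRNA 2 median of all genes from 0.14 to -0.06. Relative to all genes, the siRNA 2 medians were higher by 0.54 for HNRNP, 0.31 for SRSF, 0.25 for SNRP and 0.22 for SF3A and SF3B genes. After scaling to equal totals the same distances were 0.50, 0.27, 0.21 and 0.19, and after quantile normalization 0.41, 0.23, 0.17 and 0.18. With siRNA 1 the distances before scaling were 0.14 for HNRNP, -0.05 for SRSF, 0.16 for SNRP and 0.22 for SF3A and SF3B genes. They were 0.13, -0.06, 0.15 and 0.22 after scaling to equal totals, and 0.15, -0.04, 0.17 and 0.24 after quantile normalization. Not set against all genes, the siRNA 2 medians after scaling to equal totals were 0.44 for HNRNP, 0.21 for SRSF, 0.15 for SNRP and 0.13 for SF3A and SF3B genes. With siRNA 1 the SRSF median was near 0, and its sign followed the scaling. These are descriptions of lists and were not tested.

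Counted by library order, 7 of 55 genes lay wholly above control with at least 1.5-fold for siRNA 1, against 17.8% of all genes, and 2, SRSF7 and SRSF12, wholly below, against 15.1%. SRSF12 passed the filter only through its control values. For siRNA 2, 20 of 55 (36.4%) lay wholly above, against 24.1%, and 3, HNRNPF, HNRNPUL1 and HNRNPA1L3, wholly below, against 16.3%. The 20 were 5 of 12 SRSF, 8 of 22 HNRNP, 3 of 9 SF3A or SF3B and 4 of 12 SNRP genes. HNRNPH2, among them, passed the filter only through siRNA libraries. The share is over the background for siRNA 2 above and under it in the other 3 counts, and no share was tested.

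Replicates of siRNA 2 were often far apart. On the log2(value + 1) scale, 20 of 55 (36.4%) were over 2-fold apart, against 19.5% of all genes, and 19 of those 20 were higher in replicate 2, the exception being HNRNPA1L2. In the control 4 of 55 were that far apart, against 7.86%, and with siRNA 1 5 of 55, against 7.09%. Over all 55, 39 were higher in siRNA 2 replicate 2 (70.9%), compared with 50.7% of all genes. By family these were 6 of 12 SRSF, 17 of 22 HNRNP, 7 of 9 SF3A or SF3B and 9 of 12 SNRP genes.

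Several of the gaps were large. HNRNPR, which binds mRNA in nucleus and cytoplasm, was at 3.74 and 3.46 in the control, 4.30 and 3.87 with siRNA 1, and 3.60 and 71.3 with siRNA 2. SNRPF, an Sm protein, was at 8.32 and 5.80, then 5.87 and 8.501, then 8.02 and 99.2. For both genes 5 libraries are alike and siRNA 2 replicate 2 is far above them. SNRPD1, another Sm protein, stood apart in replicate 1 instead, at 9.50 and 9.46 in the control, 12.8 and 13.2 with siRNA 1, and 2.15 and 14.3 with siRNA 2.

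Gaps occurred in the other groups too. HNRNPC, which coats nascent RNA, was at 117 and 25.2 in the control, HNRNPK, a binder of C-rich RNA, at 32.4 and 143 there and at 133 and 29.1 with siRNA 1, and SNRPC, a U1 protein, at 31.3 and 0.695 with siRNA 1. In each of them the replicates of a group lie far apart. The 8 genes with such a gap in the control or with siRNA 1 have a median of 4.5 annotated transcripts, against 9 for those without. Whether the number of transcripts or the counting plays a part was not tested.

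**Figure D4:**
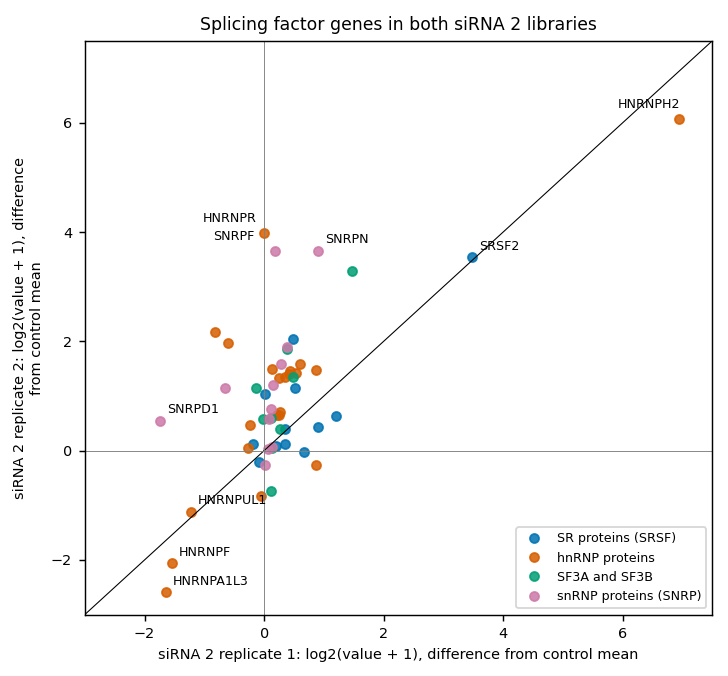
Difference from the control mean of each of the 55 genes on the log2(value + 1) scale in siRNA 2 replicate 1 (horizontal) and replicate 2 (vertical), coloured by family, with a line of equal values. SRSF2, HNRNPF and HNRNPUL1 lie near the line, while HNRNPR, SNRPF and SNRPN lie far above it.

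Ratios of some related genes varied widely between libraries, and those of others less. The ratio of SRSF2 to SRSF8, a gene that arose from SRSF2 by retroposition, was 1.23 and 1.07 in the control, 0.892 and 1.01 with siRNA 1, and 8.33 and 14.5 with siRNA 2. The ratio of HNRNPH1 to HNRNPF was 0.881 and 0.857 in the control, 0.790 and 0.852 with siRNA 1, and 3.09 and 6.07 with siRNA 2. The ratio of HNRNPUL1 to HNRNPUL2 was 5.77 and 4.73, then 4.43 and 4.56, then 1.89 and 1.48. In these 3 pairs the siRNA 2 libraries stand apart in both replicates, but not through the called member alone. With siRNA 2 HNRNPH1 was at 161 and 219, against 134 and 133 in the control. HNRNPUL2 was at 23.5 and 32.4, against 19.3 and 21.1, and SRSF8 at 16.4 and 9.78, against 9.65 and 10.2. For SRSF3 and SRSF7, both small SR proteins linked to mRNA export, the ratio was 0.916 and 1.43, then 3.09 and 3.72, then 2.14 and 0.754, so here siRNA 1 is the group with the highest values. The ratio of SNRPB to SNRPN, alternative Sm B proteins, was 18.9 and 16.9, then 9.10 and 14.5, then 5.58 and 2.68. By comparison, SNRPA to SNRPB2, both snRNP proteins, stayed between 1.20 and 2.14, and HNRNPL to HNRNPLL between 4.84 and 8.83. Within that range HNRNPL to HNRNPLL was 8.83 and 7.53 in the control, 4.84 and 5.10 with siRNA 1, and 7.36 and 6.66 with siRNA 2. The siRNA 1 values are thus the lowest. Of 14 such pairs listed, these 7 are given, chosen after their values were seen, and no ratio was tested.

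The promoters of these genes were searched for 6 short motifs on both strands of the 250 bases before the RefSeq start (GRCh38.p14), where 50 of the 55 genes had an entry. The motif CCGGAAG, the core of sites of ETS factors, occurred in 18 of 50 (36%), and in 16.8% of the 9300 promoters of tested genes and 8.82% of all 27305 promoters. It was found in 6 of 8 SF3A or SF3B and 7 of 11 SNRP promoters, and in 3 of 20 HNRNP and 2 of 11 SRSF promoters. For comparison, GGGCGG was in 31 of 50 (62%) against 68.6% of promoters of tested genes, CCAAT in 20 against 35.5%, CACGTG in 7 against 9.08%, TATAAA in 6 against 5.12%, and TGACGTCA in 0 against 3.01%. A match describes letters, not binding. Shown are 27 bases around 1 match in each of 6 genes, 5′ to 3′ along the strand of the motif, with the motif in capitals to show the match in the SF3 and SNRP promoters.
SF3A1: ggggacggtcCCGGAAGtgcgccagtc
SF3B2: tacggcgccaCCGGAAGttccggcaag
SF3B4: cgtcttcgccCCGGAAGtggaagtcgt
SNRPA1: ggcgttcttgCCGGAAGtcgtggcgcg
SNRPB: gtgagctggaCCGGAAGtaggtttcta
SNRPG: cgacctcggaCCGGAAGaagaaatgaa
They lie at chr22:30356927-30356953 (minus), chr11:66052301-66052327 (plus), chr1:149927813-149927839 (minus), chr15:101295345-101295371 (plus), chr20:2470814-2470840 (minus) and chr2:70293492-70293518 (plus). In 5 of these 6 genes the match starts 26 to 53 bases before the RefSeq start, and in SNRPA1 113 bases before it. These 6 are examples and do not show the range of positions. In SF3A3, SF3B6, SNRPB2, SNRPC and SNRPD2, matches start from 19 (SF3B6) to 214 (SNRPC) bases before the RefSeq start.

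Beyond the 4 families, 85 genes of the wider splicing machinery were listed and 82 tested. With siRNA 1, 0 rose and 1 fell, against 0.705% and 0.923% of all genes, and with siRNA 2, 0 rose and 1 fell, against 1.24% and 1.76%. Their median log2 differences were 0.00 and 0.51, beside 0.05 and 0.14 over all genes, and the siRNA 2 value was 0.20 in replicate 1 and 0.91 in replicate 2. SRPK2, a kinase that phosphorylates SR proteins, was at 15.7 and 14.9 in the control, 5.26 and 4.91 with siRNA 1, and 13.2 and 14.1 with siRNA 2. It fell by 1.42 on the log2 scale with siRNA 1 (SE 0.158, limma adjusted p = 0.0425), and the siRNAs differed by -1.27 (limma adjusted p = 0.0401). Both siRNA 1 libraries are the low ones. Of all genes, 15.1% lay wholly below control by at least 1.5-fold with siRNA 1, and of the 12 SRSF genes 2 did, SRSF7 and SRSF12. SRSF12 had passed the filter only through its control values.

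MBNL2, a regulator of alternative exons, was at 28.3 and 26.9 in the control, 13.02 and 13.6 with siRNA 1, and 7.01 and 4.58 with siRNA 2. It fell by 2.10 with siRNA 2 (SE 0.230, limma adjusted p = 0.0385), and its siRNA 1 difference of -0.999 did not pass the test (limma adjusted p = 0.112). All 4 siRNA libraries lie below both control libraries. With replicate number added as a term, 0 of all genes were called, so the calls of SRPK2 and MBNL2 ended there too. By list, the siRNA 2 medians were 0.88 for 13 genes of the tri-snRNP and the PRPF19 complex (13 of 13 above 0), 0.77 for 5 genes of 3′ splice site recognition, 0.69 for 12 genes of the SMN complex and Sm methylation, 0.64 for 11 other U1, U5 and minor spliceosome proteins, 0.41 for 11 SR kinases and partners, 0.35 for 22 other regulators and -0.04 for 8 LSM genes. Over all genes the siRNA 2 median was 0.14, with 57.8% above 0. In siRNA 2 replicate 1 alone the 7 medians ran from -0.39 to 0.35, with 0.35 for the tri-snRNP list, and in replicate 2 from 0.42 to 1.46, with 1.46 for that list. With siRNA 1 the same 7 medians ran from -0.16 to 0.41.

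In the lists with no call, the genes with the smallest p, taking both siRNAs together, were SART3 (snRNP recycling), LSM1 (mRNA decay), SNRNP27 (tri-snRNP), PHF5A (SF3B subunit) and CLNS1A (Sm assembly). Their log2 differences from control, averaged over both siRNAs, were 0.77, 0.74, -0.59, 0.74 and 0.75, and the lowest limma adjusted p was 0.0783, for SART3. SART3 was at 9.60 and 9.88 in the control, 13.4 and 15.2 with siRNA 1, and 20.0 and 22.1 with siRNA 2, so the 3 groups do not overlap.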

How the data were processed

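RNA from 6 A549 libraries was sequenced after poly(A) selection and strand-specific preparation, per the labels' protocols. Trim Galore, STAR, featureCounts and hg38 are named, without versions or roles, per the submitters' processing notes. The deposited table holds a depth-scaled signal per gene, fractional abundances made by the authors with a tool and unit not given in the sources used here; no read counts were recovered, so depth and counting error are unknown. The design allowed for counts, and its fallback for a normalized unit was used. The 11486 genes that reached 1 in 2 or more of 6 libraries were analysed as log2(value + 1), a scale that understates changes of low genes. A model with 1 term per group (3 residual degrees of freedom) was fitted with limma 3.58.1 in R 4.3.3, with trended, robust eBayes. The same fit was run on simulated data in which each gene had 1 spread for all groups. In these data the median replicate SD was 0.086 in the control, 0.102 with siRNA 1 and 0.320 with siRNA 2. The simulation therefore does not cover the unequal spread. Adjusted p is Benjamini-Hochberg over all genes tested. Tables and figures used Python 3.11.15, pandas 2.3.3 and matplotlib 3.10.9. Shared sequence was measured as 50-base words of 1 transcript per gene found in other GENCODE 29 genes.

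Named with all values were genes called in any of 4 comparisons, the 3 smallest p per family with each siRNA, the highest and lowest level per family, and genes outside control with both siRNAs; genes of the paragraphs on replicate gaps and ratios were chosen after their values were seen. The members and lists were chosen with earlier results of these data known. The 17 alternatives cover scaling, pseudocount, filters, weights, model terms and each library left out. A sequence comparison of some related genes is not reported here.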

Additional observations from a re-analysis of the deposited data

Results flagged for a closer look

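SRSF2, HNRNPF and HNRNPUL1 differed between the siRNAs, by the test of that difference itself. For siRNA 1 minus siRNA 2 the log2 values were -3.18 for SRSF2, 1.93 for HNRNPF and 1.17 for HNRNPUL1 (limma adjusted p = 0.0157, 0.0369 and 0.0443). In each gene both siRNA 2 libraries lie outside the other 4. Groups of 2 libraries are too small for a search for single outlying samples.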

How the results depend on the processing

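The 3 calls with siRNA 2 are sensitive to how the spread is estimated. Scaling to equal column totals gave 1 call with siRNA 2, 0 for the mean of both and 1 between the siRNAs. Of all genes 19, 36 and 38 were called. The family medians were then -0.057 (SRSF), 0.13 (HNRNP) and 0.22 (SF3) for siRNA 1. For siRNA 2 they were 0.21 (SRSF), 0.44 (HNRNP), 0.13 (SF3) and 0.15 (SNRP). Upper-quartile scaling and quantile normalization gave the same 1, 0 and 1 calls, with siRNA 2 SRSF medians of 0.23 and 0.20. Of all genes, upper-quartile scaling called 112, 36 and 76, and quantile normalization 143, 59 and 189. Library weights gave 10 calls with siRNA 1, 1 with siRNA 2, 4 for the mean and 0 between the siRNAs. Of all 11486 genes they called 3001, 11, 791 and 5 in the same order. Only the groups compared gave 11, 0 and 0 (2386, 0 and 0 of all genes), with no such fit for the mean. No filter left 1 call with siRNA 2 (110 of 16909 genes), and a mean of at least 5 moved the siRNA 2 SRSF median to 0.53. With the replicate block there were 0 calls with siRNA 2, for the mean and between the siRNAs, among the 55 and among all genes. Same-numbered libraries deviated together by correlations of 0.00136, -0.00332 and 0.0459. Such values show no shared deviation over all genes, but cannot tell whether the numbers mark a shared culture or day. Leaving out 1 library at a time gave 0 to 11 calls with siRNA 1, 0 to 31 with siRNA 2, 0 to 28 for the mean and 0 to 30 between the siRNAs, the high ends where 1 siRNA 2 library is left and the spread comes from the other groups. The lone library is then assumed to vary like them. Medians ranged for siRNA 1 over -0.073 to 0.13 (SRSF), 0.15 to 0.21 (HNRNP), 0.27 to 0.36 (SF3) and 0.21 to 0.31 (SNRP), and for siRNA 2 over 0.41 to 0.46, 0.23 to 1.34, 0.13 to 0.59 and 0.13 to 0.96. No called value changed sign; the siRNA 1 SRSF median, near 0, did. SRSF2 with siRNA 2 was called in 11 of 17 alternatives (limma adjusted p 0.00636 to 0.115), HNRNPF and HNRNPUL1 in 6 of 17 each (0.00636 to 0.225 and 0.00939 to 0.265). These counts include the fits that leave 1 siRNA 2 library. Where no cause is given, the cause was not tested. Depth is unknown and limits low genes most.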

Other observations

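Summed over its genes, each family took the following share of the column total. SRSF genes held 0.219% and 0.205% in the control libraries, 0.187% and 0.193% with siRNA 1, and 0.345% and 0.284% with siRNA 2. HNRNP genes held 0.626% and 0.607%, then 0.678% and 0.645%, then 0.580% and 0.673%. SF3A and SF3B genes held 0.116% and 0.110%, then 0.156% and 0.149%, then 0.138% and 0.141%. SNRP genes held 0.191% and 0.204%, then 0.212% and 0.222%, then 0.199% and 0.277%. The SRSF share is highest in both siRNA 2 libraries and the SF3A and SF3B share in both siRNA 1 libraries, and these shares were not tested.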
